A study of Mus musculus with 2 samples.

Results

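The genes described here encode the core of the Mediator complex, RNA polymerase II and the general transcription factors that place the polymerase on promoters. They were chosen by a rule on names, set with earlier results of these data known. The rule took every gene of the deposited table whose symbol begins with Med and a digit, Gtf2, or Taf and a digit. It also took Polr2 followed by a letter from a to l, and left out the kinase module subunits Med12, Med13, Med12l and Med13l. This gave 73 genes of 30712 on the array, read by 133 probes. The study compared CT26 cells, a mouse colon carcinoma line, transduced with a lentiviral vector for a short hairpin RNA against CDK8 (pLKO.1-shCDK8, the knockdown) with CT26 cells transduced with the empty pLKO.1 vector (the control). Total RNA of each culture was read on 1 Illumina mouse bead array, and the labels do not say whether the cells were a clone or a pool. With 1 array per group nothing measures the spread between cultures, so no p-value is given and no difference could be checked in a second culture. A gene called higher or lower was so on the knockdown array relative to the control array.

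Mediator is the large complex through which transcription factors bound to enhancers reach RNA polymerase II. Its head and middle modules touch the polymerase, its tail binds many activators, and a detachable module that carries the kinase CDK8 controls access to the rest. RNA polymerase II itself starts only after TFIID, TFIIA, TFIIB, TFIIF, TFIIE and TFIIH have assembled at the start site, where TFIID, made of the TATA-binding protein and its associated factors (TAFs), recognises the promoter and TFIIH opens the DNA.

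Values are log2 intensities after background correction and quantile normalization, in which an added constant draws the differences of dim probes towards 0. Each difference is knockdown minus control. A gene counted as detected on both arrays if at least 1 of its probes exceeded the background on each, and its value is the mean over such probes. One measure of precision is the SD of 0.19 between probes of the same gene, pooled over 3942 genes with 2 or more such probes, which describes probes and not cultures. The background of each count is the share of all 13406 detected genes past the same fold.

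The hairpin's target was lower on the knockdown array. Cdk8 had a log2 intensity of 7.89 in the knockdown and 9.88 in the control, 3.96-fold lower, at the 1 of its 3 probes that was above background. Raw totals were 1.46e+07 on the knockdown array and 1.40e+07 on the control array, and before normalization the probes detected on both arrays were higher in the knockdown by a median of 0.08. Defining markers gave a limited check of the label. Of 8 epithelial markers, 3 were above background on both arrays and lower in the knockdown, with differences of -0.94 for Krt20, -0.93 for Cdx2 and -0.14 for Cdh1, all at dim probes. Epcam, Krt18, Krt19 and Vil1 were above it on neither, while none of 5 leukocyte markers was detected. Of 5 detected fibroblast markers 4 were higher and 1 lower in the knockdown, with differences from -0.60 to 1.41, and the part of either marker list in the values below was not tested.

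The transcription machinery was detected more often than the genes of the array at large. Of its 73 genes, 62 were detected on both arrays, or 84.9%, against 43.7% of all genes. A gene with more probes has more chances to be detected. The 73 genes had 133 probes, and the array held 45281 probes for 30712 genes. The part of probe number in these shares was not tested. Another 3 were detected on 1 array and 8 on neither. Signal also depends on the strength of a probe, so levels of different genes are not set against each other.

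Most of the machinery, like most detected genes, differed little between the arrays. By at least 0.32 on the log2 scale, the smaller of the 2 thresholds used, 2 of the 62 genes were higher in the knockdown and 5 lower, which is 3.23% and 8.06%. Over all detected genes the corresponding shares were 8.72% higher and 9.37% lower, or 18.1% either way. By at least 1.5-fold, no member was higher and 1 was lower, against 2.12% higher and 2.26% lower among all genes, or 4.38% either way. The median difference of the 62 genes was -0.05, and that of all detected genes -0.01. The typical size of a difference, regardless of sign, was 0.14 for the members and 0.15 for all genes. Shares of members past 0.32 thus lay below the background for higher genes and near it for lower ones. For lower genes this did not hold in every setting. Without background correction 4 of the 62 members were lower, against 3.16% of all genes, so the members' share then lay above the background.

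**Figure D1:**
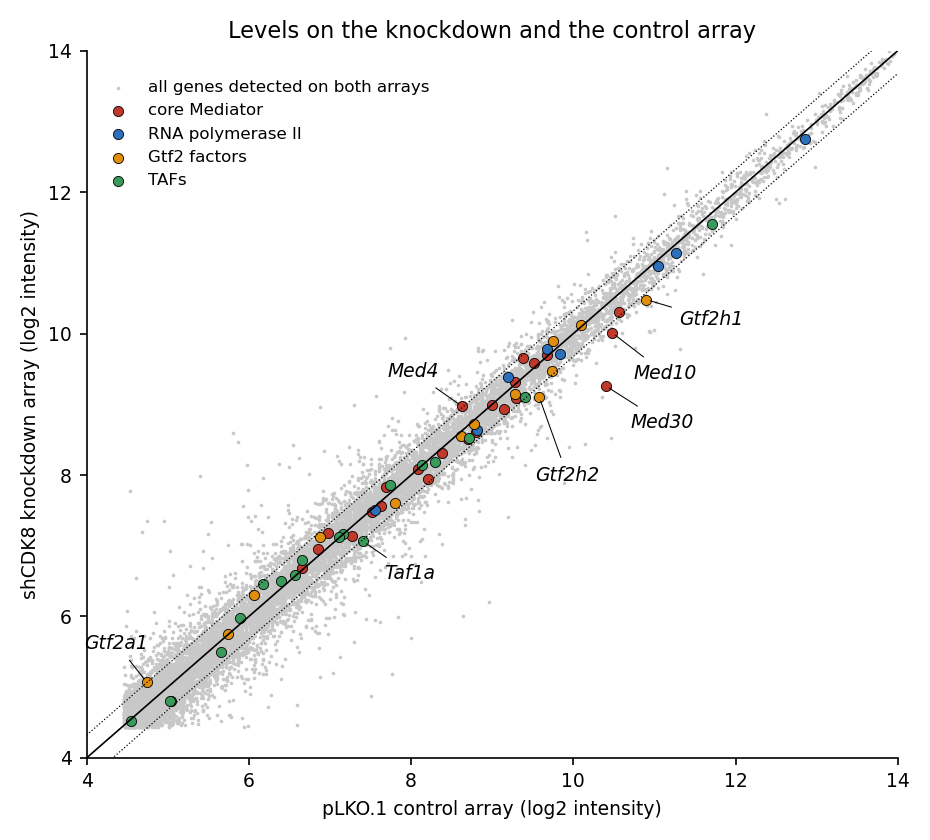
Log2 intensity of each gene detected on both arrays, knockdown (vertical) against control (horizontal), with the 62 members coloured by complex and all detected genes in grey. Dotted lines mark 0.32 either way; 7 members lie past them and are named, and Med30 lies farthest from the diagonal.

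Med30 was the one member past 1.5-fold. It encodes a Mediator subunit found in animals and not in yeast, lodged where the head meets the tail. Its single probe had a raw intensity of 705.1 in the knockdown and 1396 in the control, both far above the background peaks of 87.99 and 88.59. The log2 intensities were 9.26 in the knockdown and 10.40 in the control, a difference of -1.14 or 2.20-fold lower. Among all detected genes 49 had a lower value. With 11 other settings of the processing the difference ranged from -1.16 to -1.05.

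No other subunit placed between head and tail came near this size. Med28 differed by -0.25, with 10.31 in the knockdown and 10.56 in the control. Med29 differed by -0.23 close to background, where its probe read 100.2 in the knockdown and 105.3 in the control. Med27 differed by -0.01. The 4 genes of this group were below 0, with a median of -0.24, as were 6815 of all 13406 detected genes. Each of the 4 was read by 1 probe, and the Med27 value is well inside the spread between probes. With the authors' processed intensities Med29 was at 0.00 and the median was -0.14. Because Med30 was read by 1 probe, no second probe could be set beside it.

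Genes next to Med30 on chromosome 15 had smaller differences or differed in the other direction. The detected neighbours on either side, Ext1 and Rad21, differed by -0.30 and -0.34. Over the 8 nearest detected genes, 4 on each side in the gene order of assembly GRCm38.p6, differences ran from -0.34 to 0.73 with a median of 0.15. Chromosome 15 as a whole had a median of -0.04.

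**Figure D2:**
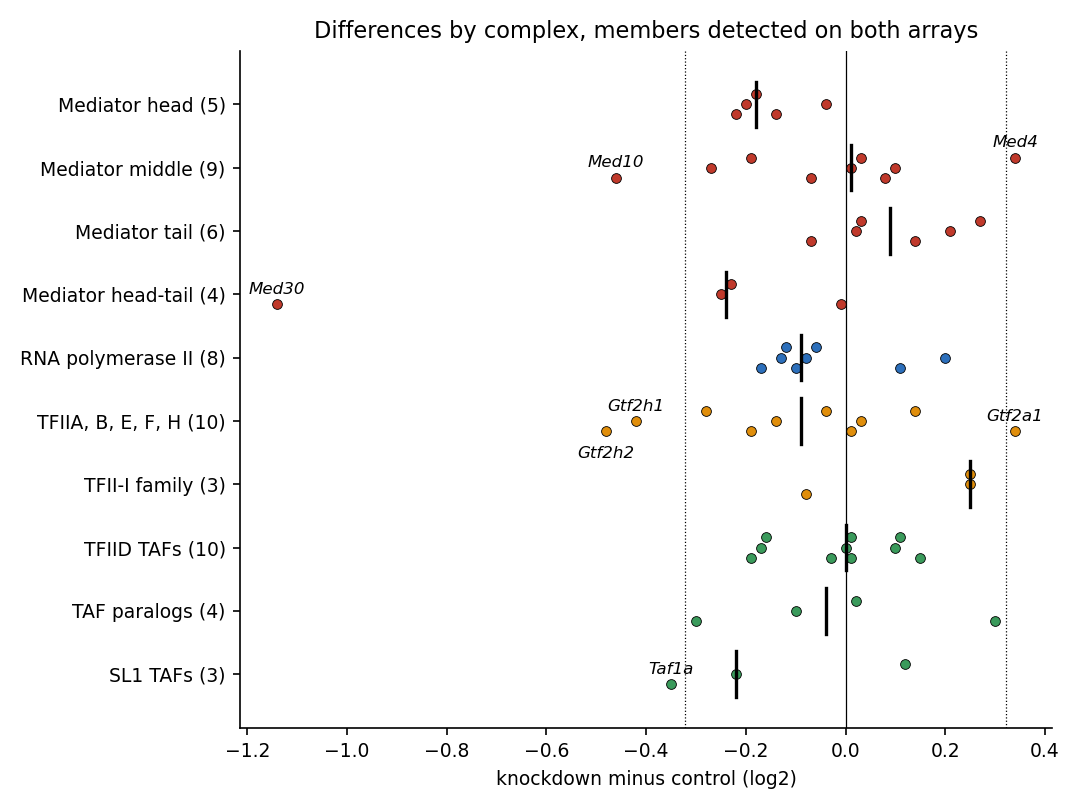
Knockdown minus control on the log2 scale for each member detected on both arrays (points), grouped by complex, with the group median as a black bar and the number of detected members in brackets. Dotted lines mark 0.32 either way; the Mediator head and the head-tail group lie on the lower side of 0, and the TFIID TAFs lie between -0.19 and 0.15.

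In the head module of Mediator, which contacts the polymerase, none of the 5 detected genes reached 0.32. Of all detected genes 18.1% did, either way. All 5 head values were below 0, with a median of -0.18, and 6815 of all 13406 detected genes were also below 0. Med8 was the lowest, with 8.93 in the knockdown and 9.14 in the control, and its 2 probes gave -0.23 and -0.20. Med6 differed by -0.20, Med11 by -0.18 and Med18 by -0.14. Med22 was the least different at -0.04, and its 2 probes disagreed in sign (-0.13 and 0.04). Only Med6 and Med8 exceeded the SD between probes. That SD is for single probes, while the values of Med8, Med11, Med18 and Med22 are means over 2 detected probes. Med17, which organises the head, was at the edge of detection: its single probe read 90.4 in the knockdown, not above background, and 94.6 in the control, at least 1.02-fold lower.

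The middle module, which also touches the polymerase, held members on both sides. Of its 9 genes, all detected, 5 were above 0 and 4 below, and the median was 0.01. Med10 was the lowest: its probe read 1127.7 in the knockdown and 1468.7 in the control, a difference of -0.46 or 1.38-fold lower. It stayed past 0.32 in 11 of 11 other settings. Med31 differed by -0.27 and Med26, a docking point for elongation factors, by -0.19. Med1, the subunit contacted by nuclear receptors, differed by 0.10, but its 2 detected probes gave -0.05 and 0.26. Med7, Med9, Med19 and Med21 lay between -0.07 and 0.08.

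Med4 was the highest gene of the middle module and of core Mediator. Its single probe read 589.7 in the knockdown and 452.7 in the control, a difference of 0.34 or 1.27-fold higher. Med4 lies on chromosome 14, whose 351 detected genes had a median of 0.22, while the medians of the other chromosomes ran from -0.08 to 0.06. Taken relative to the chromosome's median, Med4 differed by 0.12 and no longer passed 0.32. The other member on this chromosome, Gtf2f2, which encodes a TFIIF subunit, differed by 0.03, or by -0.20 relative to the chromosome's median.

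In the tail module, the main landing site of activators, none of the 6 genes, all detected, reached 0.32 as a mean over probes. Of all detected genes 18.1% did, either way. Of the tail values 5 were above 0, with a median of 0.09, as were 6536 of all 13406 detected genes. Med16 was highest, at 9.65 in the knockdown and 9.38 in the control, a difference of 0.27. Med14 is the backbone that joins tail, middle and head. Its mean difference was 0.21 over 3 probes that disagreed: the brightest read 527.2 in the knockdown and 368.1 in the control and gave 0.53, and the others gave -0.10 and 0.21. Med25 differed by 0.14 and Med24 by 0.03. Med23, a contact for growth factor-responsive activators, differed by 0.02, with probes at -0.08 and 0.12. Med15, a partner of the sterol regulator SREBP, was the lowest at -0.07.

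The kinase module was kept out of this set and is given for orientation. Its detected genes other than Cdk8 had differences from -0.04 (Ccnc) to 0.61 (Med13), where the Med13 probe was close to background. Between these lay Cdk19 at 0.38 and Med12 at 0.36, both at probes well above background, and Med13l at 0.29. The 24 detected core Mediator genes had a median of -0.06, with 10 above 0 and 14 below.

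None of the 8 detected RNA polymerase II subunits passed 0.32, while 18.1% of all detected genes did, either way. With 8 genes this does not set the group apart. The subunits had a median of -0.09, with 2 above 0 and 6 below. Among all 13406 detected genes, 6536 were above 0 and 6815 below. Polr2e, a subunit shared by the nuclear RNA polymerases, was highest: its probes gave 0.19 and 0.22, with a mean level of 9.39 in the knockdown and 9.19 in the control. Polr2d, a stalk subunit, differed by 0.11, and all 4 of its probes were above 0, from 0.01 to 0.17. Polr2g, its partner in the stalk, differed by -0.13. Polr2h, also shared between polymerases, was lowest at -0.17.

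The largest subunit, Polr2a, carries the catalytic centre and the repeated tail that is phosphorylated during transcription. It had 7.50 in the knockdown and 7.55 in the control, a difference of -0.06. This rests on a probe for which the table gives the symbol but no gene number, and its probe with a gene number was not above background. Polr2l, Polr2j and Polr2f were bright, at log2 levels from 10.96 to 12.75 in the knockdown, and differed by -0.12 to -0.08. Polr2c was above background on neither array, at 89.1 in the knockdown and 92.0 in the control. Polr2b, Polr2i and Polr2k were not analysed here.

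TFIIH, the factor that opens promoter DNA and also serves in nucleotide excision repair, held both Gtf2 genes that were lower past 0.32. Gtf2h1 read 1530.5 in the knockdown and 1937.5 in the control at its bright probe, a difference of -0.42 or 1.34-fold lower. Gtf2h2 read 640.8 in the knockdown and 816.7 in the control at its single detected probe, a difference of -0.48 or 1.39-fold lower. With its 2 undetected probes averaged in, the difference was -0.18 and no longer past 0.32. Both encode structural core subunits. A further core gene, Gtf2h4, differed by -0.28, short of 0.32, though its lowest value among the other settings was -0.33.

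The rest of TFIIH did not follow as a block. Gtf2h3 differed by 0.14 and Gtf2h5, the smallest subunit, by 0.01. Of the TFIIH genes named otherwise, Ercc3, the translocase that opens the DNA, differed by 0.16. Mnat1 differed by -0.21, Ercc2, the repair helicase, by -0.08, and Ccnh by 0.05. Cdk7, the kinase of TFIIH, was near the limit, at 93.0 in the knockdown, not above background, and 95.0 in the control. Across the 9 TFIIH genes of either naming that were detected on both arrays, differences thus ran from -0.48 to 0.16.

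Regions upstream of Gtf2h1 and Gtf2h2 are shown because these genes were lower together, and that of Med4 because it was higher. Each region shown is the 250 bases before the transcription start, 5′ to 3′ on the gene's strand, from RefSeq on GRCm38.p6: Gtf2h1 at chr7:46795844-46796093 (plus strand), Gtf2h2 at chr13:100492395-100492644 (minus strand) and Med4 at chr14:73509799-73510048 (plus strand). Capitals mark matches to 5 motifs on either strand. The TATA box was searched as TATAAA. The CCAAT box was searched by the letters of its name. The core read by ETS factors was searched as CCGGAA. The E-box searched for was CACGTG, bound by MYC and its relatives. The GC box, bound by SP factors, was searched as GGGCGG.
Gtf2h1: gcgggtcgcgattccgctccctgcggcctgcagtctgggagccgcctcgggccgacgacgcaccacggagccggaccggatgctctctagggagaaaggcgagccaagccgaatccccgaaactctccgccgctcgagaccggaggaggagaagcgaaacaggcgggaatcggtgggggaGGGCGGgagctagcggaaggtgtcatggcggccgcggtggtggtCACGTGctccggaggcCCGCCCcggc
Gtf2h2: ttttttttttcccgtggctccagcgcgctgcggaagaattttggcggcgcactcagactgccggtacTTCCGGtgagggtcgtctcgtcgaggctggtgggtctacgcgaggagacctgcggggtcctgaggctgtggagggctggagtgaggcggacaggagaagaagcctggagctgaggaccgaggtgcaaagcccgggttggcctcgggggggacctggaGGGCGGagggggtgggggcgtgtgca
Med4: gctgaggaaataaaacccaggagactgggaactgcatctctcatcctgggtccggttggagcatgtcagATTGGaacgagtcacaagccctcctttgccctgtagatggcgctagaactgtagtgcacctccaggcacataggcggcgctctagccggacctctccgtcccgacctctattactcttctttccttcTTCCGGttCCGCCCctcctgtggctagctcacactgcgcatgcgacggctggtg
No base lies in 2 matches. The Gtf2h1 window held an E-box beginning 26 bases before the start and GC boxes beginning 70 and 10 bases before it. The Gtf2h2 window held the ETS core 183 bases and a GC box 26 bases before the start. The Med4 window held a CCAAT box, the ETS core and a GC box at 181, 54 and 46 bases. A TATA box was in none of the windows.

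Promoters of the machinery were also compared as a class, without regard to expression. The RefSeq table held windows for 63 of the 73 genes, 77 windows in all since some genes have several starts. The ETS core was in 32.5% of them, against 15% of 21263 windows of protein-coding genes. The E-box was in 15.6% against 6.63%, the GC box in 55.8% against 42.6%, the CCAAT box in 35.1% against 35.4% and the TATA box in 15.6% against 11.6%. Median GC content was 57.2% in the members' windows and 55.6% in all windows, with 17 and 10 CG dinucleotides. A match is a run of letters and not a bound site.

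As means over probes, the other detected initiation factors stayed within 0.32 with an exception at low signal. Gtf2a1, the large subunit of TFIIA, was 1.26-fold higher, with 5.07 in the knockdown and 4.74 in the control, a difference of 0.34. Its brighter probe read 124.0 in the knockdown and 104.2 in the control and gave 0.69, while the other detected probe read 94.1 in the knockdown and 94.8 in the control and gave -0.02. Its value depended on how dim probes were handled and was 0.12 without background correction.

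TFIIE and TFIIF lay nearer to 0 as means over probes. Gtf2e2 differed by -0.19 and Gtf2e1 by -0.04, the subunits of TFIIE. The Gtf2e2 probes were unequal. The brighter read 722.4 in the knockdown and 842.4 in the control and gave -0.34, past the smaller of the thresholds used. The dimmer read 133.6 in the knockdown and 133.3 in the control and gave -0.04. Gtf2f1, a TFIIF subunit, differed by -0.14. Together the 10 detected genes of TFIIA, TFIIE, TFIIF and TFIIH had a median of -0.09. Gtf2b, the only gene of TFIIB, and Gtf2a2, the small TFIIA subunit, were above background on neither array, although both are general initiation factors. The Gtf2b probe read 90.5 in the knockdown and 87.6 in the control, so its level has only a bound here.

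**Figure D3:**
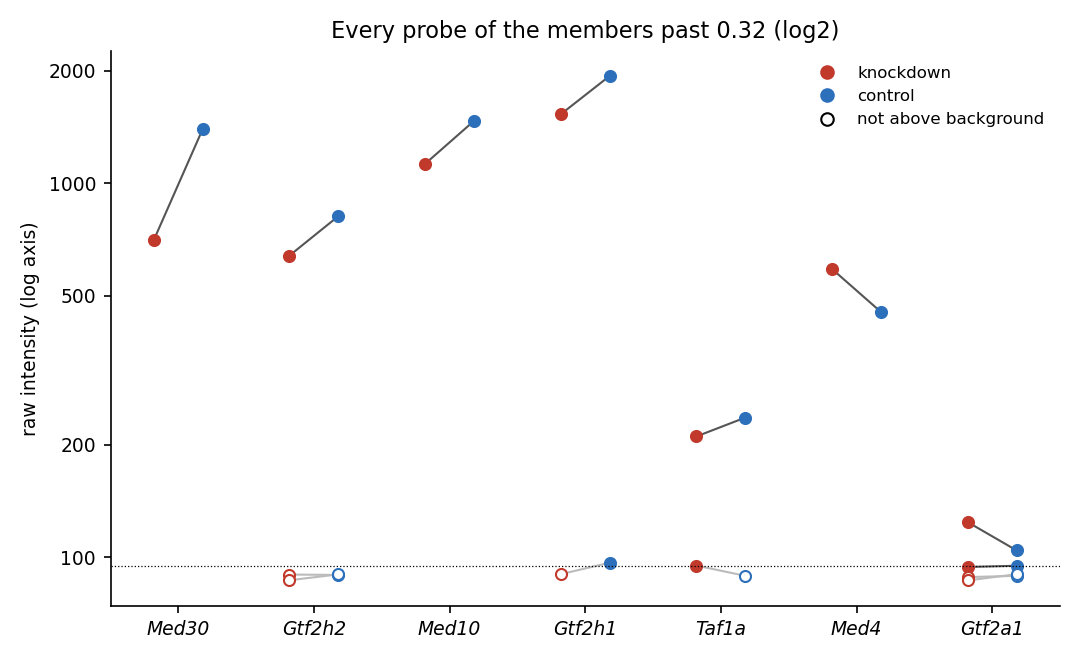
Raw intensity (log axis) of every probe of the 7 members past 0.32, knockdown in red to the left and control in blue to the right, joined by a line per probe. Open points were not above background and the dotted line marks the detection limit of the control array; Med30, Med10, Gtf2h2, Gtf2h1 and Med4 each have 1 probe well above it, the further probes of Gtf2h1 and Gtf2h2 lie near or below it, and Gtf2a1 is close to it.

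The TFII-I family consists of transcription regulators that share the factor's name but are not needed for basal initiation. Gtf2ird1 and Gtf2ird2, which neighbour Gtf2i on chromosome 5, both differed by 0.25. For Gtf2ird1 the 4 detected probes ranged from -0.02 to 0.43 and the brightest read 488.5 in the knockdown and 383.9 in the control. For Gtf2ird2 the 3 probes ranged from 0.11 to 0.39. Gtf2i read 5039.5 in the knockdown and 4821.6 in the control at its main probe and differed by -0.08 as a mean. Since the family shares sequence and a probe may bind transcripts of more than 1 member, the separate values are uncertain.

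No detected TFIID gene reached 0.32 as a mean over probes. The 10 detected TAF genes ran from -0.19 to 0.15, with a median of 0.00, 5 above and 5 below. Of all detected genes 18.1% lay past 0.32 either way, so with 10 genes this does not set TFIID apart. Taf12 was the lowest at -0.19, and its 4 probes were all below 0, from -0.26 to -0.10. Taf10, like Taf12 a histone-fold subunit shared with the co-activator SAGA, differed by -0.16, with 11.55 in the knockdown and 11.71 in the control. Taf1, the largest TFIID subunit, was dim and differed by -0.17. Taf9 was the highest at 0.15, but its brighter probe gave -0.15 and its dim one 0.45.

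Taf6 and Taf13 both differed by 0.01 and Taf11 by 0.00. Taf3 differed by 0.11 and Taf5, a scaffold of TFIID, by 0.10, each with a brighter probe below 0 and a dimmer one above. Taf7, a regulator of Taf1, was at the edge of background, at 95.0 in the knockdown and 95.9 in the control, and differed by -0.03. Taf4a, named Taf4 in RefSeq, exceeded the background on the knockdown array alone (95.9 in the knockdown, 89.9 in the control) and was higher by 1.08-fold or more. Taf8 exceeded it on the control array alone (84.4 in the knockdown, 95.1 in the control) and was lower by 1.04-fold or more. The detected readings of Taf4a and Taf8 lay just above the limits of 93.68 (knockdown) and 94.48 (control), so both bounds and their directions are uncertain. Taf2 was above background on neither array. The TATA-binding protein gene Tbp, which completes TFIID, differed by -0.08 over 4 probes.

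Among the TAF paralogs and relatives, Taf6l, a SAGA subunit, was highest at 0.30 and Taf15, an RNA-binding protein, lowest at -0.30. Taf15 had 9.10 in the knockdown and 9.41 in the control. Taf5l, also of SAGA, differed by -0.10 and Taf9b by 0.02. Because Taf9 and Taf9b are close paralogs, their values are uncertain as separate ones. The paralogs Taf4b and Taf7l, known for roles in germ cells, were above background on neither array.

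The TAFs of SL1 serve RNA polymerase I and fell under the naming rule without being part of TFIID. Taf1a read 210.3 in the knockdown and 236.2 in the control, a difference of -0.35 or 1.27-fold lower. The table gives neither of its probes a gene number, and with its dim second probe averaged in, which was detected in the knockdown only, the difference was -0.01. Taf1c differed by -0.22 close to background and Taf1d by 0.12, with probes at 0.10, listed in the table under the symbol Josd3, and 0.13. Taf1b was above background on neither array. RNA polymerase I and III subunits had a median of -0.06 over 14 genes, all within 1.5-fold, from -0.41 (Polr3e) to 0.31 (Polr3d). Of all detected genes 4.38% lay past 1.5-fold either way.

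Factors that act after initiation were examined as a neighbouring list. Of 33 pausing and elongation genes 30 were detected on both arrays, with a median of 0.05 and a range from -0.35 to 0.36. By at least 0.32, 1 was higher, Ctr9 of the PAF complex at 0.36, and 3 were lower. The lower ones were Wdr61 of the same complex and Hexim1, an inhibitor of the elongation kinase, each at -0.35, and Ccnt1, the cyclin of that kinase, at -0.32. No gene of the list reached 1.5-fold, and Cdk9, the elongation kinase, differed by 0.18. These counts are 3.33% and 10%, close to or below the shares of all genes.

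Agreement between probes set a limit on the small differences. Of the 62 members, 25 had 2 or more probes detected on both arrays, and for 13 of these all probes had the same sign. Of the 7 members past 0.32, 6 rested on a single such probe. Beyond the SD between probes lay 8 higher and 14 lower members, 35.5% of the 62, against 38.7% of all detected genes. The SD is for single probes and was set alike against means over several.

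**Figure D4:**
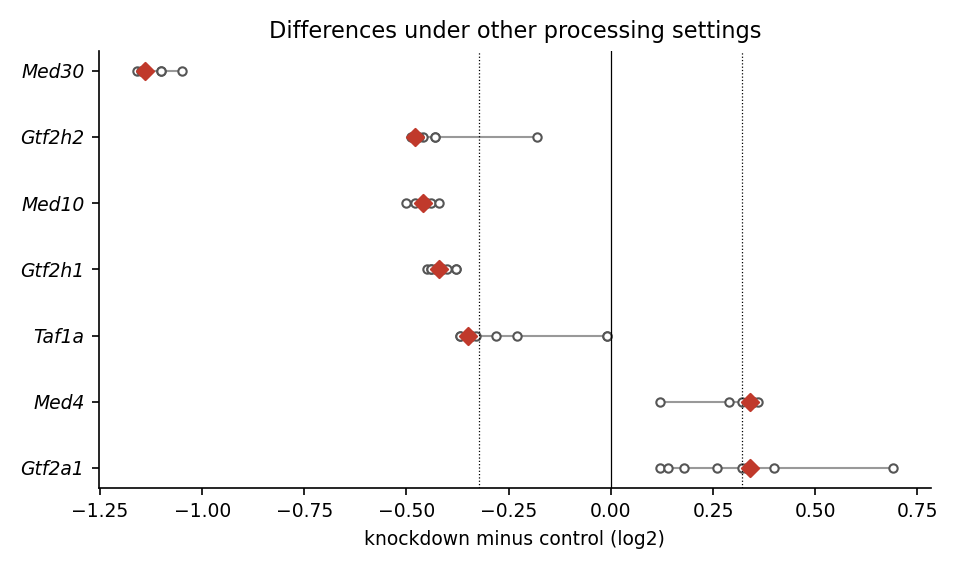
Knockdown minus control on the log2 scale of the 7 members past 0.32 as reported (red diamonds) and under each other processing setting (open circles, joined by a line). Dotted lines mark 0.32 either way; Med30, Med10 and Gtf2h1 stay past the line in every setting shown, and Gtf2h2, Taf1a, Med4 and Gtf2a1 do not.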

How the data were processed

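Per the labels, RNA extracted with Qiagen columns was labelled as biotinylated cRNA with an Ambion kit. One deposited table gives the raw intensity of 45281 probes, exported with GSGX 1.9.0 without normalization or background subtraction, per the file headers, and has no detection p-values. The deposited series table holds processed intensity values whose making is not given in the sources used here. They are linear, 29.8% lie below 0, both columns have a median of 3.4 and their sorted values differ by at most 0.1, and their centring and scale remain unknown, so they served as an alternative.

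The most frequent value among dim probes was taken as an array's background (87.99 on the knockdown array, 88.59 on the control array) and the values below it, mirrored, its SD (2.49 and 2.56). A probe above the upper 1% of the mirrored background (93.68 and 94.48) was detected, 47.3% and 46.1% of probes. No negative control beads were used, so the limit may be lenient. Intensities were corrected with normexp (limma 3.58.1, R 4.3.3), raised by an offset of 16, quantile normalized between arrays and log2 transformed. Symbols outside the members were updated through gene numbers in a RefSeq table of GRCm38.p6, which held 29586 of 31508 numbered probes. No source used here names a build for the probes. A gene detected on 1 array has a bound: its value there against its own value on the other array or the lowest detected one there, whichever is larger. The processing was tested on simulated data.

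The members and lists, and the rule for named genes, were chosen with earlier results of these data known. The rule took members past 1.25-fold, the highest and lowest member of each group, and a set of core subunits whatever their values; other genes named to describe a group were chosen after their values were seen. A log2 difference of 0.32 is that fold. Alternatives changed the offset, background correction, normalization, filter, choice of probes, source table or centring, 1 at a time. Med20, listed under an older symbol, is not among the members.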

Additional observations from a re-analysis of the deposited data

How the results depend on the processing

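The number of arrays limits every value, and dim probes are the least certain. Of 677 comparisons of single members with other settings, 663 moved the difference by less than the SD between probes and 14 by more. No difference past 0.32 (log2), which 7 members had, was reversed. Some smaller differences changed sign: Gtf2h5, Taf5 and Taf6 each kept theirs in 8 of 11 other settings. Members lower by at least 0.32 numbered 4 to 6 in every setting. They were 4 with an offset of 50, where 4.74% of all genes were lower, and 4 without background correction, where 3.16% were, so their share of 8.06% against 9.37% as reported stood nearer the background than in these settings. The higher ones, 2 as reported, were 0 with an offset of 50 and 0 without background correction (where 4.80% and 3.42% of all genes were higher), 1 each with median scaling (7.46%), with raw intensity of at least 120 (9.21%) and relative to the chromosome's median (8.09%), and 3 each with the brightest probe (9.63%) and the authors' processed intensities (8.94%). With the brightest probe per gene, 1 member (Gtf2a1) was at least 1.5-fold higher. With the authors' processed intensities the medians were -0.14 for the head-tail group, 0.13 for the TFII-I family, 0.00 for the SL1 TAFs and -0.02 for all members. Without background correction they were 0.13 for the TFII-I family and -0.07 for the SL1 TAFs, which stood at 0.00 with no filter and, chosen after seeing the data, at -0.01 with probes detected on either array averaged. The TFIID median was -0.11 with the brightest probe, and that of TFIIA, B, E, F and H -0.17 relative to chromosome medians. The cause of these shifts was not tested. Gtf2h2 no longer passed 0.32 with no filter (-0.18). No paired analysis was possible because each group has 1 array.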
